A study of Mus musculus with 6 samples.

Results

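Many immediate early and stress genes are transcribed within minutes of a stimulus. A list of 33 genes under that name, some of them also expressed in resting cells, was followed here in RNA from 2 regions of the mouse femur. The members were taken by symbol: the AP-1 genes Fos, Fosb, Fosl2, Jun, Junb and Jund with Atf3, the Egr, Nr4a, Klf and Ier genes, dual specificity phosphatases, mRNA decay and antiproliferative genes, Myc, feedback inhibitors of NF-kB and cytokine signalling, and inducible heat shock genes. Each of the 33 was measured, among 18193 genes in all, by 64 of the 34945 probe sets that name a single gene. A probe set is a group of short array oligos whose brightness is summarised as 1 signal, and a gene was represented by its probe set with the highest mean log2 signal. By level, 26 members lay above the median of all genes and 7 (Fosb, Atf3, Egr2, Egr3, Nr4a2, Dusp5 and Hspa1a) below it.

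The study set RNA of the endosteum, the inner bone surface where haematopoietic stem cells are thought to have a niche, against RNA of the central marrow. All animals were male C57BL/6 mice, 8 weeks old, that had received intraperitoneal saline, and the labels name no transgene or deleted allele. There were 3 central and 3 endosteal arrays, marked A, B and C in each region, from the femurs of 3 mice. Per the labels' protocols, central RNA came from cells flushed out of the shaft in buffer and pelleted at 370 g for 5 minutes. The pellet was lysed in Trizol, a phenol-based reagent, whereas endosteal RNA came from Trizol passed through the emptied shaft. A flush volume of 1 mL and 5 reflushes are listed for samples of both regions, and the spin for central samples alone. Time in suspension and region of origin therefore cannot be told apart in these arrays. The endosteal fraction is whatever remained on the bone, and in bulk RNA fewer cells of a type and less RNA per cell cannot be told apart.

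As background, immediate early genes need no new protein synthesis, because kinases activate factors that the cell already holds. Examples are serum response factor, which acts at the CArG box, CREB at the cAMP response element and NF-kB at the kappa B site. Many of the products of immediate early genes are transcription factors. Others, among them phosphatases, mRNA decay factors and inhibitor proteins, shut the response down again. Heat shock genes use heat shock factor 1 in a similar way, and dissociation, spinning and warming of tissue are known to induce members of both groups in many cell types.

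Promoter sequences were searched for short motifs of these inputs close to the annotated start. RefSeq (GRCm38.p6) windows of the 250 bases before the annotated start were matched by symbol for 29 of the 33 members, not for Egr1, Egr3, Ier2 and Myc. In the sequences below, written 5′ to 3′ on the gene's own strand, capitals mark matches on either strand to the CArG box, the cAMP response element TGACGTCA or its core TGACG, the AP-1 site TGANTCA, the heat shock element GAANNTTC, the kappa B site, or the Egr site GCGGGGGCG or GCGTGGGCG. Fos is shown as the model gene of the response, Dusp1 as a phosphatase with a full cAMP response element, Zfp36 and Klf2 as members that fell in endosteal RNA, and the Hspa1 pair because their windows are nearly the same.
Fos, chr12:85473640-85473889, plus strand: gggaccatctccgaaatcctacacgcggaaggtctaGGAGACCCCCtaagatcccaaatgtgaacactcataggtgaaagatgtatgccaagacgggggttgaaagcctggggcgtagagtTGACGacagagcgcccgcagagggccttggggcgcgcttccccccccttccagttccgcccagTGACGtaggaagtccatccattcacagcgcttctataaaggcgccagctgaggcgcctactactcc
Dusp1, chr17:26508473-26508722, minus strand: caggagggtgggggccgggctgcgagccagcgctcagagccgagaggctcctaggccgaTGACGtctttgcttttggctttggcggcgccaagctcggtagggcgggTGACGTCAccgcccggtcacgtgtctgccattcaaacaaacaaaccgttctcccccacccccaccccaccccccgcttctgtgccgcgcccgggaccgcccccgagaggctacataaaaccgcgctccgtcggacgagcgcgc
Zfp36, chr7:28379229-28379478, minus strand: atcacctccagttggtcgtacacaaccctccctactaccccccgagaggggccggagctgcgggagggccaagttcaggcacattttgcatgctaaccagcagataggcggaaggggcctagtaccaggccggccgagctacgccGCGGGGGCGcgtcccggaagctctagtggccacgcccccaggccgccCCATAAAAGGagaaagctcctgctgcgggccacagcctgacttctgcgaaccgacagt
Klf2, chr8:72318812-72319061, plus strand: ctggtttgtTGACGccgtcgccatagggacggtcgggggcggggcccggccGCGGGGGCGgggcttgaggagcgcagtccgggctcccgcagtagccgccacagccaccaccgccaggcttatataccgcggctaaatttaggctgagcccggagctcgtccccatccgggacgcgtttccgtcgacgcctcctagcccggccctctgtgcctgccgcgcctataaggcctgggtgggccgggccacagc
Hspa1a, chr17:34972157-34972406, minus strand: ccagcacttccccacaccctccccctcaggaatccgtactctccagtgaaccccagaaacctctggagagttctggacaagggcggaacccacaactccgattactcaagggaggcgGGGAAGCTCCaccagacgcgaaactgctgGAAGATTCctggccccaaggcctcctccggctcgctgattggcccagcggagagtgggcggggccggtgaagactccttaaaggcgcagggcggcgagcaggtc
Hspa1b, chr17:34959239-34959488, minus strand: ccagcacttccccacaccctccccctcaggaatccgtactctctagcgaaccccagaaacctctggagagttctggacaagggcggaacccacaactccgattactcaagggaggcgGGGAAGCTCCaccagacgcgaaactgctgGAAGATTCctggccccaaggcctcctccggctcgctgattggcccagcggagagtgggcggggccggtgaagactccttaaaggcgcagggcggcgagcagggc

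Counted from the start, the CArG box of Zfp36 lies at -58 to -49 and its Egr site at -105 to -97. The cAMP response element of Dusp1 lies at -143 to -136 and contains the core on both strands. The heat shock element lies at -104 to -97 in both Hspa1 windows, which differ at 3 of 250 bases. Among the members that fell but are not printed, Btg1 held the core TGACG and Ier2 had no window. The windows of Jund and Ier5 held none of the motifs. Whether the annotated start of Jund is its main start was not tested. The core TGACG was held by 15 of the 29 members with a window and by 19.8% of all genes with one, the Egr site by 8 members and 3.48% of genes, and the kappa B site by 9 members and 8.23% of genes. A CArG box was found in 3 members (Egr2, Dusp5 and Zfp36) against 1.62% of genes, the full cAMP response element in 2 (Dusp1 and Btg2) against 1.77%, the heat shock element in 4 against 7.73% and the AP-1 site in 2 against 7.82%. A match is a description of letters and not of binding. Sites farther than 250 bases before the start were not searched, so a window without a match does not show that a gene lacks the input.

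Of the 33 members, 6 fell in endosteal relative to central RNA and 0 rose. The 6 were the AP-1 subunit Jund, the Krüppel-like factor Klf2, the mRNA decay factor Zfp36, the nuclear response genes Ier2 and Ier5, and the antiproliferative gene Btg1. Fos, Jun and Egr1, the genes most often used to read out this response, had higher mean signals in endosteal RNA and did not pass, and neither did any heat shock member. A gene is said to have risen or fallen where limma's Benjamini-Hochberg adjusted p over all 18193 genes was under 0.05. By that rule 3.97% of all genes fell and 7.74% rose. With arrays scaled to poly-A controls in place of the deposited scale, Jund alone of the 6 was lower and passed. Among the genes above the median level 6.95% fell and 8.62% rose, and all 6 members that fell were among the 26 members above it.

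More members lay below 0 than above it on the deposited scale, most without passing the test, and scaling to poly-A controls, described further on, turns the sign of most of these. On the scale of log2(signal + 16), the median difference, endosteal minus central, was -0.33 over members and 0.10 over all genes, and -0.39 over the 26 members above the median level against -0.01 over all such genes. The difference was below 0 for 20 of the 33 members and for 42.7% of all genes, and among those above the median level for 18 of 26 members and 50.9% of genes. At an unadjusted p under 0.05, 13 members were lower and 0 higher, against 11.3% and 17.7% of all genes. The 3 endosteal arrays lay wholly below the 3 central arrays for 14 members and wholly above them for 2 (Nr4a2 and Hspa1a), compared with 15.4% and 22.1% of all genes. Among genes above the median level 26.8% lay wholly below and 26.1% wholly above, against 14 and 0 of the 26 members of that level. Of the 27 that did not pass, 5 were lower with an adjusted p between 0.05 and 0.10: Klf4, Klf6, Dusp1, Dusp2 and Dusp6.

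**Figure D1:**
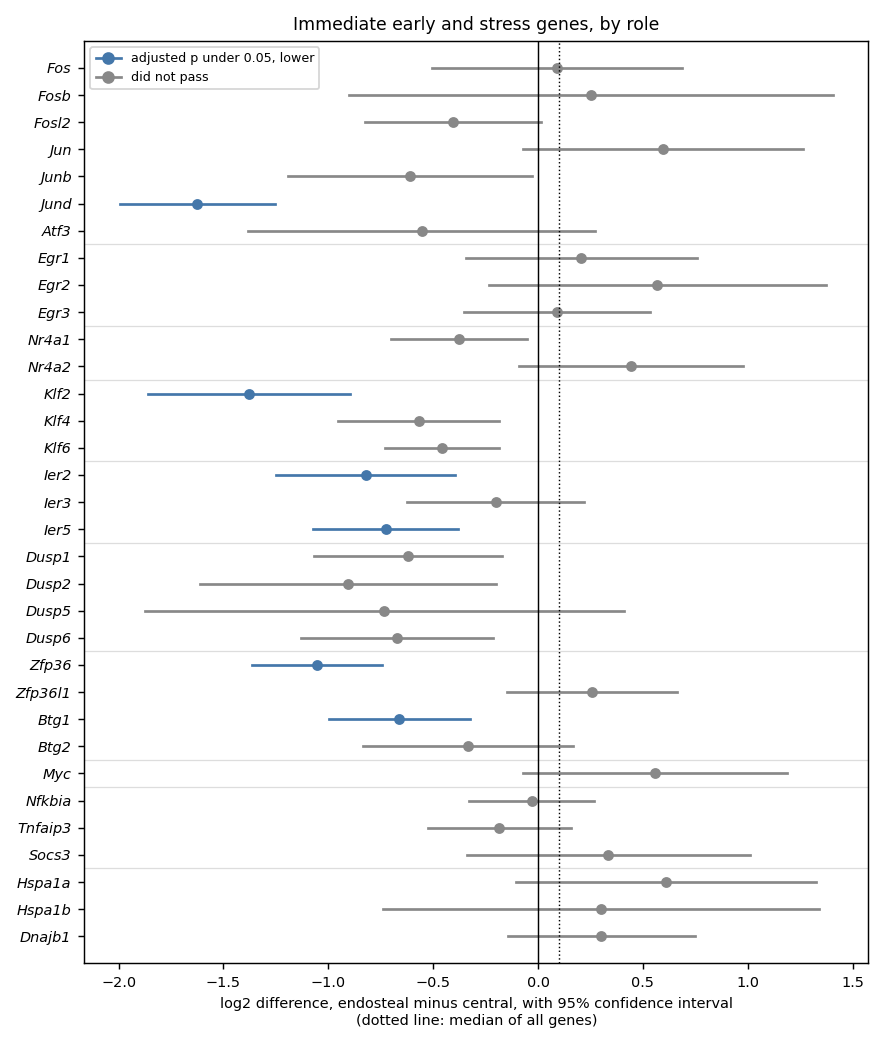
Log2 difference, endosteal minus central, of each of the 33 members with its 95% confidence interval from limma (n = 3 arrays a region), grouped by role; blue marks an adjusted p under 0.05. The 6 blue genes lie between -1.63 (Jund) and -0.66 (Btg1), while the intervals of Fos, Jun, the Egr genes and the heat shock genes include 0.

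Jund, the AP-1 subunit that many resting cells express, gave the largest difference. Its signal was 5108, 4190 and 5010 on the central arrays, in the order A to C used throughout, and 1474, 1713 and 1417 on the endosteal ones. The lowest central array was therefore well above the highest endosteal array. The signal averaged 4769 ± 504 in central and 1534 ± 157 in endosteal RNA (SD, n = 3), a 3.09-fold lower level, and fell by 1.63 on the log2 scale (SE 0.15, limma adjusted p = 0.00548). A second Jund probe set, which read 27.9 to 101 on the endosteal and 32.7 to 56.9 on the central arrays, was low in both regions and differed by 0.28 (adjusted p = 0.711).

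The other AP-1 genes did not pass. Junb, which often opposes Jun in cell division, read 452, 441 and 357 in central and 273, 348 and 196 in endosteal arrays. Those arrays did not overlap, and the log2 difference was -0.61 (SE 0.24, limma adjusted p = 0.154). Fos, the partner that forms AP-1 with the Jun proteins, read 970, 530 and 712 against 845, 710 and 741. The regions overlapped fully, and the difference of 0.09 had a 95% interval from -0.50 to 0.68. For Jun the arrays read 237, 158 and 197 against 427, 283 and 229, with overlap between central A and endosteal C, and the difference was 0.60 (interval -0.07 to 1.27, adjusted p = 0.214). Fosl2 read 2003 to 2527 in central and 1472 to 1942 in endosteal arrays, a difference of -0.40 with no overlap (adjusted p = 0.186). Atf3, a stress-induced repressor, differed by -0.56 and Fosb by 0.25, both with overlapping arrays.

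The Egr genes, zinc finger factors induced through serum response factor, showed no member past the threshold. Egr1 read 524, 466 and 482 in central and 770, 535 and 444 in endosteal arrays, with endosteal A the highest and endosteal C the lowest of the 6. The difference was 0.21 (interval -0.34 to 0.76), and it became -0.01 without endosteal A. Egr2 differed by 0.57 and Egr3 by 0.09, with intervals that include 0. Nr4a1, an orphan nuclear receptor induced by antigen and growth factor signals, read 485 to 548 in central and 369 to 438 in endosteal arrays. These did not overlap, and the difference was -0.38 (SE 0.13, limma adjusted p = 0.127). The related Nr4a2 differed by 0.44 on the probe set used for the gene, and its probe sets disagree, as described further on.

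All 3 Klf members were lower in every endosteal array than in any central array, and 1 of the 3 passed. Of all genes above the median level, where these 3 lie, 26.8% lay wholly below and 6.95% fell. Klf2, a factor that keeps lymphocytes quiescent and is induced by flow in endothelium, read 2878, 2578 and 2757 in central and 997, 849 and 1334 in endosteal arrays. It fell by 1.38 (SE 0.19, limma adjusted p = 0.0149), a 2.60-fold lower signal. Klf4 read 2893, 2724 and 2809 against 2256, 1684 and 1767, a difference of -0.57 (adjusted p = 0.0708). Klf6 was tight within each region, at 1839, 1800 and 1781 against 1293, 1328 and 1314, with a difference of -0.46 (SE 0.11, adjusted p = 0.0524).

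Of the Ier genes, short-lived response genes named only for their early induction, 2 of 3 fell, against 6.95% of genes above the median level. Ier2 read 2489, 2022 and 1988 in central arrays and 1254, 1030 and 1378 in endosteal arrays. No array of one region reached the other, and the signal fell by 0.82 (SE 0.17, limma adjusted p = 0.0385). Ier5 read 1940, 1977 and 1895 against 1159, 1029 and 1324, also without overlap. It fell by 0.73 (SE 0.14, adjusted p = 0.0311). Ier3, a modulator of apoptosis, overlapped between regions and differed by -0.20 (adjusted p = 0.491).

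**Figure D2:**
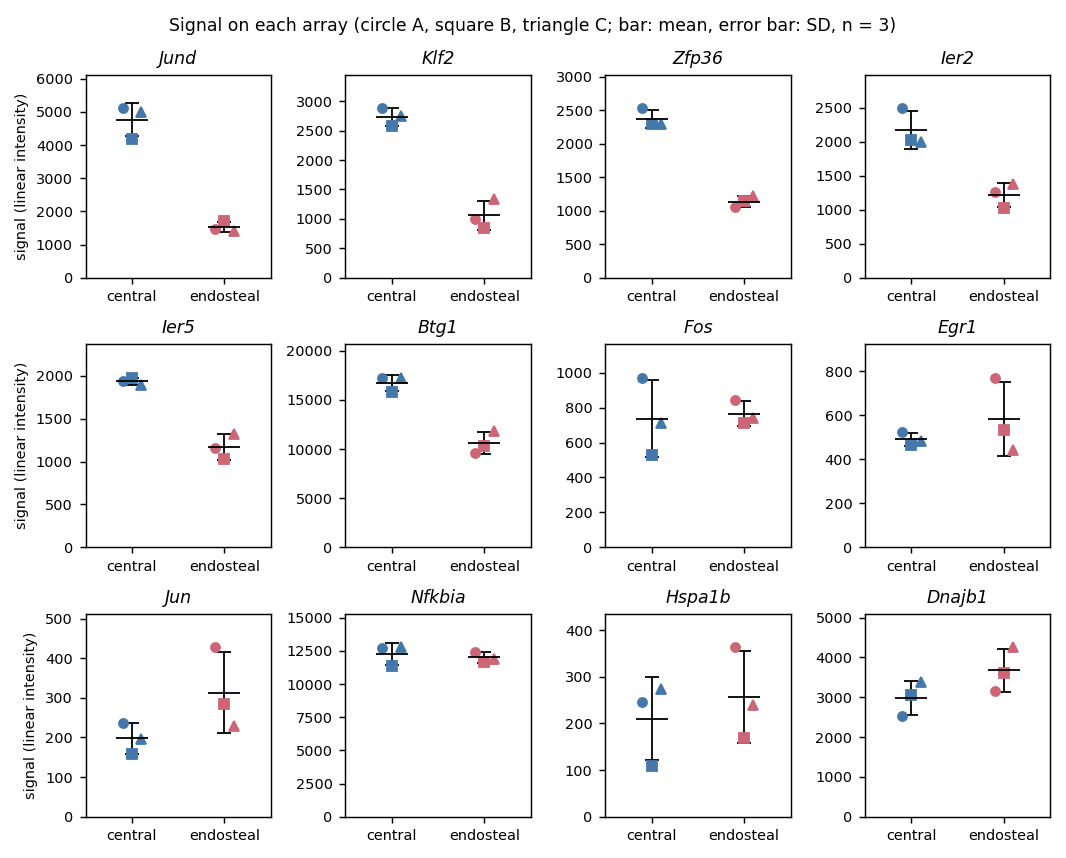
Linear signal of 12 members on each array (circle A, square B, triangle C; long bar, mean; error bar, SD, n = 3), central arrays in blue and endosteal arrays in red, each panel with its own axis from 0. The regions do not overlap for Jund, Klf2, Zfp36, Ier2, Ier5 and Btg1, and they overlap for Fos, Egr1, Jun, Nfkbia, Hspa1b and Dnajb1.

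The 4 dual specificity phosphatases, which switch off MAP kinases, all had differences below 0 and none passed. Dusp1, which acts on p38 and JNK, read 2866, 2038 and 2518 in central and 1523, 1444 and 1823 in endosteal arrays. There was no overlap, and the difference was -0.62 (SE 0.18, limma adjusted p = 0.0845). Dusp2, a nuclear phosphatase of haematopoietic cells, read 680, 717 and 1075 against 308, 437 and 559, a difference of -0.91 (SE 0.28, adjusted p = 0.0989). Dusp6, the cytoplasmic ERK phosphatase, read 1205, 1222 and 974 against 861, 642 and 623, a difference of -0.67 (adjusted p = 0.0731). Dusp5, the nuclear ERK phosphatase, spread from 51.8 to 216 within the endosteal arrays, so that its difference of -0.73 had an interval from -1.88 to 0.41.

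Among the factors that remove mRNA or restrain growth, Zfp36 and Btg1 fell and their relatives did not pass. Zfp36 encodes tristetraprolin, which binds AU-rich elements in cytokine mRNAs and starts their decay. It read 2525, 2295 and 2294 in central and 1051, 1137 and 1214 in endosteal arrays. The values within a region were close, and the signal fell by 1.05 (SE 0.12, limma adjusted p = 0.0102), a 2.08-fold lower level. Btg1, a partner of the CCR4-NOT deadenylase, read 17189, 15785 and 17243 against 9597, 10349 and 11860 and fell by 0.66 (SE 0.14, adjusted p = 0.0367). Zfp36l1, a close relative of Zfp36, differed by 0.26, and Btg2 by -0.33, each with overlapping arrays on the probe set used for the gene. Myc, the growth factor-induced transcription factor, read 420, 794 and 476 in central and 772, 841 and 808 in endosteal arrays. Central B lay among the endosteal arrays, and the difference was 0.56 (interval -0.07 to 1.19).

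None of the 3 feedback inhibitors of NF-kB and cytokine signalling passed. Nfkbia, the inhibitor that holds NF-kB in the cytoplasm and is itself an NF-kB target, read 12746, 11340 and 12761 in central and 12455, 11644 and 11923 in endosteal arrays. The difference was -0.03 (interval -0.33 to 0.27). Tnfaip3, the ubiquitin editor A20, differed by -0.18 (interval -0.52 to 0.16). Socs3, which blocks signalling from the IL-6 family of receptors, differed by 0.34 (interval -0.34 to 1.01).

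The heat shock members had differences above 0 and did not pass. Hspa1a and Hspa1b encode the inducible Hsp70 protein from near-identical genes, so signal may be shared between them. Hspa1a read 78.7, 38 and 96 in central and 118, 108 and 107 in endosteal arrays, and Hspa1b read 247, 110 and 275 against 363, 168 and 240. The arrays of Hspa1a did not overlap and those of Hspa1b did, and central B was the lowest array for both genes. The differences were 0.61 (interval -0.10 to 1.33) and 0.30 (interval -0.74 to 1.34), and that of Hspa1b became -0.08 without central B. Dnajb1, the Hsp40 partner of Hsp70, read 2526, 3045 and 3370 against 3163, 3617 and 4249, a difference of 0.30 with overlap (limma adjusted p = 0.333).

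Several members changed sides with the probe set. Of the 64 member probe sets, fitted with all 34945, 6 fell and 1 rose, against 2.08% and 4.63% of all probe sets. In that larger fit Ier2 (limma adjusted p = 0.0554) and Btg1 (adjusted p = 0.0575) did not pass, while 1 probe set each of Klf6 and Nfkbia did. The Klf6 probe set in question read 1573, 1084 and 1195 in central and 493, 556 and 338 in endosteal arrays and fell by 1.45 (adjusted p = 0.0315). The other 4 probe sets of Klf6 ranged from -0.67 to -0.13. For Nfkbia, 1 probe set fell by 0.91 (adjusted p = 0.0431), and the other 4 ranged from -0.30 to 0.09. The single rise was a probe set of Nr4a2, at 26.5, 38.4 and 31.6 in central and 127, 126 and 121 in endosteal arrays, a difference of 1.55 (adjusted p = 0.0085). Its other 5 probe sets ranged from -0.71 to 1.39 and did not pass. A second Btg2 probe set read 3626, 3241 and 3469 against 1748, 1870 and 2361, without overlap, a difference of -0.80 (adjusted p = 0.0509). The second Zfp36l1 probe set differed by -0.44, with the opposite sign to the first. A second Jun probe set differed by 0.08 and a second Egr2 probe set by -0.22. The other Socs3 probe sets differed by -0.47 and -0.07, and none of these passed. Of the 17 members with more than 1 probe set, 7 had differences of both signs.

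**Figure D3:**
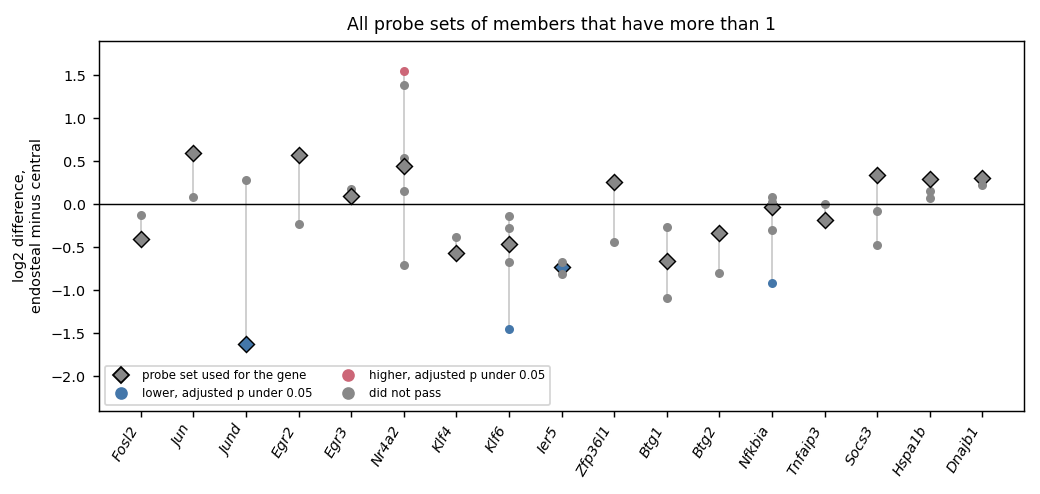
Log2 difference, endosteal minus central, of every probe set of the 17 members that have more than 1; each point is a probe set and the diamond is the one used for the gene. Nr4a2 spans -0.71 to 1.55 and Klf6 -1.45 to -0.13, and Jund has 1 probe set at -1.63 and 1 at 0.28.

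The direction of the group depends on how arrays are scaled. Every deposited array had a trimmed mean signal of 500.00, whereas the 24 poly-A control probe sets averaged lower on each endosteal array than on any central array, by 1.02 on the log2 scale. These controls read bacterial RNAs that can be added to a sample before labelling; the labels do not say whether they were. Scaling arrays to them moved the median difference of all genes from 0.10 to 0.96 and that of members from -0.33 to 0.68. Under it 18 members were higher and 1, Jund, lower (difference -0.61, limma adjusted p = 0.0435), while 57.9% of all genes were higher and 0.258% lower. Klf2 (-0.36) and Zfp36 (-0.04) kept a negative sign and did not pass, and Ier2, Ier5 and Btg1 turned positive. Centring arrays on their medians moved all genes to -0.17 and members to -0.60, with 12 members and 10.9% of all genes lower and 0 members and 5.17% of genes higher. Quantile normalization gave -0.29 for members and 0.02 for all genes, with 6 members and 3.8% of genes lower and 0 members and 6.26% of genes higher. Under each of the 4 scalings Jund was lower and past the threshold, and the median of the members lay below that of all genes. Centring adds 1 shift to every gene of an array, so it could not change the order of these medians. Poly-A scaling does nearly the same for bright genes, so that order says little about scaling.

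**Figure D4:**
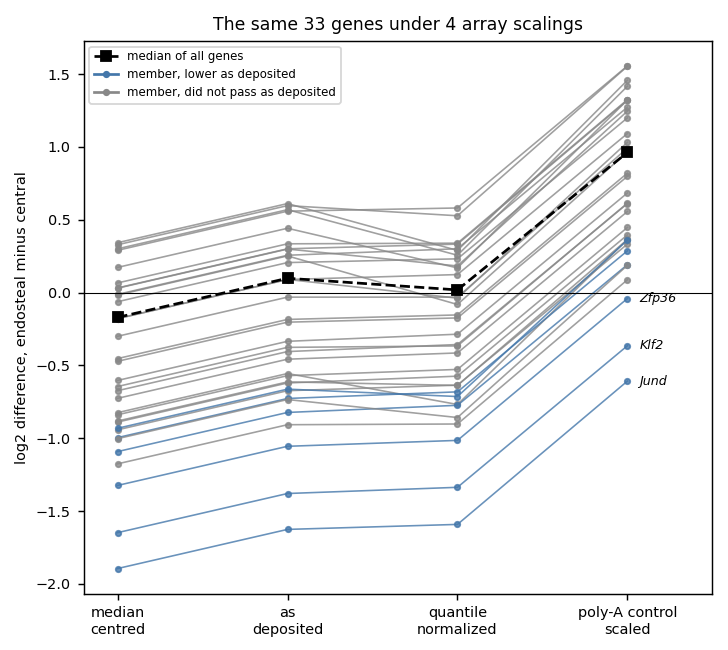
Log2 difference, endosteal minus central, of the 33 members under 4 array scalings; each line is a gene, blue where the gene fell on the deposited scale, and black squares are the median of all genes. All 33 lines rise from the deposited to the poly-A scale, and Jund, Klf2 and Zfp36 remain below 0 under the poly-A scaling.

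The calls also depend on single arrays. Leaving out each array in turn left 2 to 4 of the 33 members lower: 2 without any 1 central array, 3 without endosteal A or B, and 4 without endosteal C. In the same fits 0.489% (without central B) to 1.63% (without endosteal C) of all genes were lower. Jund (limma adjusted p 0.020 to 0.0287) and Zfp36 (0.0269 to 0.0458) passed in all 6 such fits. Klf2 was lost without central A, B or C (0.0556 to 0.0589), Ier5 in every such fit except without endosteal C (highest 0.105), and Ier2 and Btg1 in each of the 6 (0.061 to 0.105 and 0.0522 to 0.115). With the letter as a block, 0 members passed, the adjusted p of the 6 lying between 0.0585 and 0.101, and over all genes 0 fell (0%) and 0.467% rose. At an unadjusted p under 0.05 in that fit, 14 members and 10.4% of all genes were lower, and 2 members (Jun and Egr2) and 16.6% of genes were higher. Other fits gave more calls. When the 9096 genes above the median level were fitted alone, 13 of the 26 members among them and 18.9% of those genes were lower. When the variance followed intensity, 12 of the 33 members and 9.29% of all genes were lower. Jund was also lost when all probe sets of a gene were averaged (difference -0.67, adjusted p = 0.165).

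Genes that surround the members in the same pathways were read from lists chosen by function. Of 35 other immediate early genes 4 rose and 0 fell, against 7.74% and 3.97% of all genes. The matricellular genes Ccn2 (3.96, limma adjusted p = 0.0103) and Ccn1 (3.11, adjusted p = 0.0349), both targets of serum response factor and YAP, gave the largest differences, followed by the phosphatase Dusp4 (2.05, adjusted p = 0.0256). Klf9 (1.24), named after its value was seen, was the fourth. The list's median was -0.23 on the deposited scale and 0.64 under the poly-A scaling, and 24 of its 35 genes were below 0 on the former. At an unadjusted p under 0.05, 10 were lower and 5 higher, against 11.3% and 17.7% of all genes. Leaving out single arrays gave 2 or 3 rises, with Ccn2 in all 6 fits. With the letter as a block, Ccn2 alone passed of all the related genes in this list and in those described next.

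Genes of NF-kB signalling and of the kinase and serum response factor pathway had medians below 0 on the deposited scale and above 0 under the poly-A scaling. Of 17 NF-kB targets and regulators 3 fell and 0 rose: the cytokine Il1b (-0.95, limma adjusted p = 0.0465), the NF-kB subunit Rela (-0.75, adjusted p = 0.0216) and the nuclear NF-kB regulator Nfkbiz (-0.62, adjusted p = 0.0335). Of 13 genes for serum response factor, its partners and MAP kinases 3 fell and 0 rose: the coactivator Mrtfa (-1.11, adjusted p = 0.0268), the kinase Map3k8 (-0.72, adjusted p = 0.0312) and the JNK gene Mapk8 (-0.58, adjusted p = 0.0390). The medians were -0.51 and -0.39 and turned to 0.43 and 0.63 under the poly-A scaling. At an unadjusted p under 0.05, 6 and 8 were lower and 0 higher. Over all genes 3.97% fell and 7.74% rose, and at the unadjusted threshold 11.3% were lower and 17.7% higher. Without single arrays, 0 of the NF-kB genes and 0 or 1 of the others passed.

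Chaperones and cytokine feedback genes had medians above 0 under the 4 scalings. Of 15 other heat shock and chaperone genes 3 rose and 0 fell: the small heat shock gene Hspb1 (2.59, limma adjusted p = 0.0139), the constitutive Hsp70 gene Hspa8 (0.68, adjusted p = 0.0352) and the mitochondrial chaperonin Hspe1 (0.58, adjusted p = 0.0335). The median was 0.39, and at an unadjusted p under 0.05 8 were higher and 0 lower. The endoplasmic reticulum chaperone Hspa5 rose (0.72, adjusted p = 0.0377), alone among 11 unfolded protein and integrated stress genes. The median of those 11 was 0.10, as over all genes, and -0.16 with median centring. In that list 2 genes were higher and 1 lower at an unadjusted p under 0.05. Of 8 other cytokine feedback genes 4 rose and 0 fell: the growth factor inhibitors Spry4 (1.94, adjusted p = 0.0180) and Spry1 (1.25, adjusted p = 0.0251), the JAK-STAT inhibitor Socs2 (1.24, adjusted p = 0.0152) and Spred1 (0.69), named after its value was seen. Their median was 0.67, and 5 were higher and 1 lower at an unadjusted p under 0.05. Over all genes 7.74% rose and 3.97% fell, and at the unadjusted threshold 17.7% were higher and 11.3% lower. Without single arrays, 0 or 1 chaperones and 0 to 3 of the cytokine feedback genes passed, and Hspa5 did not.

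**Figure D5:**
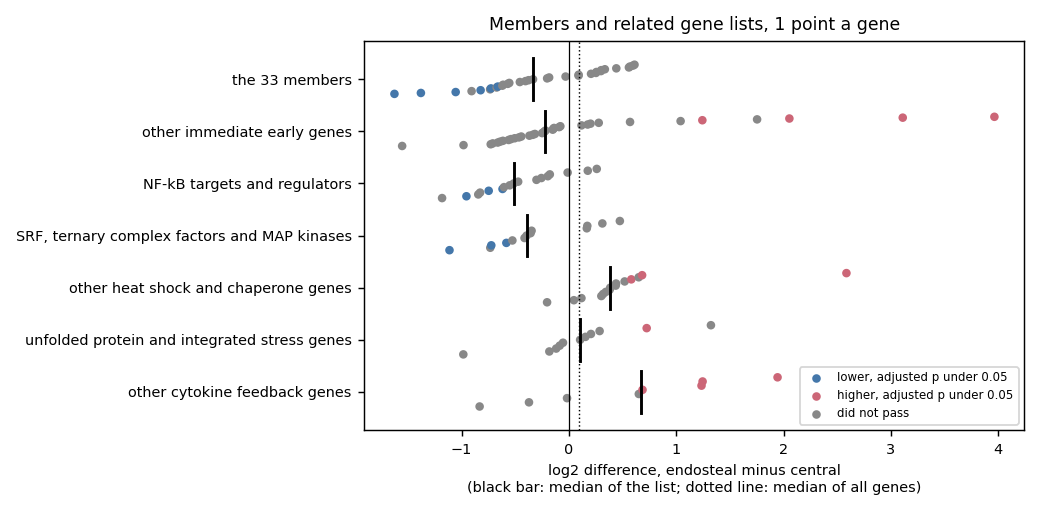
Log2 difference, endosteal minus central, of the 33 members and of 6 lists of related genes, 1 point a gene, with the median of each list as a black bar; blue and red mark genes that fell or rose at an adjusted p under 0.05. Only blue points pass among the members (6), NF-kB genes (3) and MAP kinase genes (3), and only red points pass in the other 4 lists (4, 3, 1 and 4).

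Cell markers moved with the regions too, where 7.74% of all genes rose and 3.97% fell. All 8 skeletal muscle markers rose (median 6.90), with a summed signal of 316 to 611 in central and 57833 to 113983 in endosteal arrays. Of the 5 osteoblast markers 4 rose (median 3.30), as did 3 of 6 endothelial (1.31), 3 of 6 macrophage (0.86) and 2 of 3 megakaryocyte markers (1.30). Of 5 osteoclast markers 4 rose and 1 fell, and of 8 neutrophil markers 4 rose and 1 fell (medians 2.80 and 0.56). The summed neutrophil signal was 342178 to 373578 in central and 509907 to 538891 in endosteal arrays. Of 6 B lymphocyte markers 3 fell, all 6 were below 0 (median -1.03), and their summed signal was 13540 to 20241 against 4688 to 8605. None of 5 erythroid markers passed in limma (median -0.20, 2 lower at an unadjusted p under 0.05). Scaling moved some of these medians: the neutrophil median was 0.026 under quantile normalization, and under the poly-A scaling the B lymphocyte median was -0.018 and the erythroid median 0.52. Without single arrays 0 to 3 B lymphocyte markers fell, 0 to 2 neutrophil and 0 to 2 megakaryocyte markers rose, and all 8 muscle markers rose in each fit. With the letter as a block, 8 muscle, 3 osteoblast and 2 osteoclast markers rose and no marker of the other lists passed. Ratios of 3′ to 5′ control probe sets, a sign of RNA integrity, were 0.82 to 0.89 in central and 0.77 to 0.88 in endosteal arrays for Gapdh, 1.15 to 1.23 against 1.32 to 1.40 for actin, and 4.36 to 4.97 against 3.93 to 4.59 for the transferrin receptor. The part of cell makeup, RNA integrity or handling in the differences of the 33 members was not tested.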

How the data were processed

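The authors deposited 1 intensity per probe set and array, on a linear scale, for 45101 probe sets and 6 arrays. How probes were summarised is not given in the sources used here. Each array has the same trimmed mean (2% off each end), as after scaling by 1 factor, and between 15.9% and 20.1% of its probe sets read below 16. Probe sets naming 1 gene in the platform annotation were kept (34945), 932 naming several and 9160 unnamed here were left out, and a gene took its probe set with the highest mean log2 signal. A total of 0 value columns lacked a sample.

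The deposited intensity was transformed to log2(signal + 16), a scale on which dim genes change less, and limma 3.58.1 (R 4.3.3) set endosteal against central arrays (lmFit and eBayes, two-sided, Benjamini-Hochberg over all genes, threshold 0.05) with no block. All differences, fold values, standard errors and intervals are on that scale, and means and SDs are linear. Signals of different probe sets enter the choice of a gene's probe set, the ranking of genes by level and the summed marker signals. The text does not otherwise compare them between genes. The procedure was tested on simulated data. P-values measure the spread between 3 arrays a region, and that number limits the precision.

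The 33 members, the related lists and the markers were chosen with earlier results of these data known. The text names all members and, from each related list, at most 3 genes a direction with the largest difference among those that passed, and in addition Klf9 and Spred1, chosen after their values were seen. Some genes of the lists are not reported here. The 15 alternatives cover the pseudocount (1 and 64), scaling, low genes, probe set choice, an intensity trend in the variance, the letter as a block, and each array left out.

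The design gives 3 mice for 6 arrays and the letters recur in both regions, but the labels do not tie a letter to a mouse. After subtracting region means, central and endosteal arrays of letter A correlated at r = 0.05 over all genes (0.25 over the brighter genes, those above the median level). The values were 0.04 (0.12) for letter B and 0.01 (0.08) for letter C. Promoter windows are from RefSeq (GRCm38.p6), cut to the 250 bases before the start, and for a gene with several starts the first listed is shown.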

Additional observations from a re-analysis of the deposited data

How the results depend on the processing

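Of 488 member-by-alternative values, 393 kept their direction and side of the threshold, and 31 changed sign, on whichever side of the threshold they fell. Among values that kept their sign, 29 lost the threshold and 35 gained it. All genes higher numbered 1409, and 10529 with poly-A scaling, 2184 with an intensity trend, 85 with the replicate block and 502 to 890 without single arrays. All genes lower numbered 723, and 1106 with pseudocount 64, 1975 with median centring, 47 with poly-A scaling, 1716 among genes above the median level fitted alone, 1690 with a trend, 0 with the replicate block (1899 at an unadjusted p under 0.05 in limma) and 89 to 297 without single arrays. Members lower numbered 6, and 12 with median centring, 1 with poly-A scaling, 12 with a trend, 0 with the replicate block (14 at an unadjusted p under 0.05) and 2 to 4 without single arrays. With genes above the median level fitted alone, 13 of the 26 members among them were lower. Members higher numbered 0, also with the replicate block, and 18 with poly-A scaling. The member median of -0.33 was -0.60 with median centring, 0.68 with poly-A scaling, -0.27 with the mean of all probe sets and -0.32 to -0.22 without single arrays, lowest in size without endosteal A. The block changed no sign. Centring adds 1 shift to every gene by construction, and poly-A scaling nearly so for bright genes; the cause of the other changes was not tested.

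Signs turned with poly-A scaling for Fosl2 (0.61), Junb (0.36), Atf3 (0.36), Nr4a1 (0.61), Klf4 (0.45), Klf6 (0.56), Ier2 (0.19), Ier3 (0.80), Ier5 (0.29), Dusp1 (0.40), Dusp2 (0.088), Dusp5 (0.19), Dusp6 (0.33), Btg1 (0.36), Btg2 (0.68), Nfkbia (0.99) and Tnfaip3 (0.82). They turned with median centring for Fos (-0.18), Fosb (-0.017), Egr1 (-0.062), Egr3 (-0.18) and Zfp36l1 (-0.012), with quantile normalization for Fosb (-0.081) and Egr3 (-0.038), and with the mean of all probe sets for Zfp36l1 (-0.092) and Socs3 (-0.070). Without single arrays Fos ranged from -0.12 to 0.30, Fosb from -0.021 to 0.69, Egr1 from -0.0077 to 0.38, Egr3 from -0.070 to 0.21 and Hspa1b from -0.080 to 0.55. Signals near 16, as in Fosb, hold little information on level.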
